A study of Sus scrofa with 18 samples.

Results

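Voltage-gated calcium channels let calcium into excitable cells when the membrane depolarizes, and the alpha1 subunit forms their pore. The genes described here are 8 brain alpha1 genes, CACNA1A, CACNA1B, CACNA1C, CACNA1D, CACNA1E, CACNA1G, CACNA1H and CACNA1I, out of 31908 genes counted. They were picked out of the table by gene name, with no threshold on a measured value. The gene table names 6 of them. CACNA1A (ENSSSCG00000013754) and CACNA1C (ENSSSCG00000041764) carry no name there, and these 2 were matched by Ensembl ID. All 8 passed the filter on low counts, as did 16325 genes in all.

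RNA was taken from the whole brain of domestic pig fetuses at gestation days (GD) 45, 60 and 90, from 3 females and 3 males at each day, and polyadenylated RNA was sequenced. The dams were Landrace x Large White gilts bred to LR-M6 by artificial insemination, and no treatment was given, so the labelled groups differ by fetal sex and gestation day. The female and male fetus given the same number at a day share a labelled litter size and are presumed littermates, which makes 9 litters, each seen at 1 day only. A whole brain mixes all of its regions and cell types, so fewer cells of a type and less RNA per cell cannot be told apart in any value below.

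The alpha1 genes fall into classes by the current they carry. L-type channels (CACNA1C, CACNA1D) close slowly and couple activity to gene transcription, and CACNA1C needs a stronger depolarization than CACNA1D. P/Q-type (CACNA1A), N-type (CACNA1B) and R-type (CACNA1E) channels need a strong depolarization. P/Q- and N-type channels trigger transmitter release at nerve terminals. T-type channels (CACNA1G, CACNA1H, CACNA1I) open at weak depolarization, close quickly and shape rhythmic firing, with CACNA1G and CACNA1I known for burst firing in the thalamus. An alpha1 protein has 4 homologous repeats (I to IV), and each gives the pore a loop with an acidic residue that selects for calcium.

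The split between T-type and the other classes can be read in the coding sequence of that loop. In the longest RefSeq coding sequence of each gene on Sscrofa11.1, all 8 genes have a glutamate codon at the selective position of repeats I and II. In repeats III and IV, CACNA1C, CACNA1D, CACNA1A, CACNA1B and CACNA1E have glutamate and CACNA1G, CACNA1H and CACNA1I have aspartate. The coding strand around the repeat III residue is shown for each gene because it carries this division, with the codon of the selective residue in capitals.
CACNA1C: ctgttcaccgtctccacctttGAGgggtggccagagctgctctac
CACNA1D: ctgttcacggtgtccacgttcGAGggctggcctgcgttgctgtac
CACNA1A: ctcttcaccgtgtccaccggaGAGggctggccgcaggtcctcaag
CACNA1B: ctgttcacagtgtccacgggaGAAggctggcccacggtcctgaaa
CACNA1E: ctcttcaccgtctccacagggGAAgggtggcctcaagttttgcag
CACNA1G: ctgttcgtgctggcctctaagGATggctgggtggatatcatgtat
CACNA1H: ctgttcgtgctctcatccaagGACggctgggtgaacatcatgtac
CACNA1I: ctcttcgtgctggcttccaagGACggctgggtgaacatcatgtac
In the first 5 genes the 45 bases span a splice junction, and in the T-type genes they lie within 1 coding exon. The codon in capitals is at chr5:69392756-69392758 for CACNA1C, chr13:35846720-35846722 for CACNA1D, chr2:65819970-65819972 for CACNA1A and chr9:123267552-123267554 for CACNA1E, all on the plus strand. For CACNA1B it is at bases 92195 to 92197 of an unplaced scaffold, on the minus strand. For the T-type genes it is at chr12:26892277-26892279 (CACNA1G, plus), chr3:40646345-40646347 (CACNA1H, minus) and chr5:8614558-8614560 (CACNA1I, minus).

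What was counted as each gene differed. The counted models of CACNA1B (ENSSSCG00000033493), CACNA1D (ENSSSCG00000011455), CACNA1E (ENSSSCG00000015543), CACNA1G (ENSSSCG00000017562), CACNA1H (ENSSSCG00000034266) and CACNA1I (ENSSSCG00000000082) hold 95.8% to 100% of the RefSeq coding bases and are 7475 to 10813 bases long. The model of CACNA1A is 2184 bases long and holds 26.9% of the coding bases. The model of CACNA1C is 2806 bases long, holds 38.0% and leaves out the repeat III codon shown above. Values for these 2 genes describe those pieces.

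Libraries held 15118843 to 19729783 counts on genes. Coverage along genes differed between libraries. Over 2433 genes with at least 10 well counted exons, the median share of a gene's exon counts that fell on its most counted exon, called the top-exon share here, ranged from 23.7% to 34.7%. It was highest in male GD45 fetus 3 (34.7%), female GD60 fetus 3 (31.6%), female GD45 fetus 1 (30.8%) and female GD90 fetus 1 (30.3%), and lowest in the 3 male GD90 fetuses (23.7% to 24.5%). Male GD45 fetus 3 also stood apart by gene length, with log2 CPM, TMM-normalized counts scaled by library size, that fell by 0.188 for each doubling of length relative to the mean library. Among the defining markers, those of neurons were high at every day, with a summed level of 6122 to 10218 CPM, and 5 of 7 rose from GD45 to GD90. Radial glia and progenitor markers fell at all 5 genes found, while all markers tested of astrocytes (4), the oligodendrocyte lineage (6), microglia (4) and mural cells (5) rose, and their summed median went from 76.6 to 1297, 73.1 to 2325, 49.0 to 119 and 165 to 268 CPM. Endothelial (2 of 4 higher), meningeal (1 higher and 2 lower of 4), Purkinje cell (2 of 3 higher) and retinal (1 of 1 higher) markers were mixed, erythroid and thalamic markers fell at 3 of 3 each, and pituitary genes stayed at a median of at most 0.786 CPM but reached 60.2 CPM in 1 GD60 library. The part of cell mixture in the results below was not tested. Some of the day comparisons, not all, are also given from a fit with the top-exon share as a covariate, added after the data were seen.

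Per kilobase of counted model, 2 T-type genes, CACNA1H and CACNA1G, had the highest levels of the 8 at GD45 and GD60. At GD45 CACNA1H was at 23.2 ± 1.87 FPKM (CPM per kilobase of model, mean ± SD, n = 6) and CACNA1G at 12.8 ± 1.30, and the ranges of these 2 genes overlapped neither each other nor that of CACNA1E, the next gene. CACNA1E (7.77 ± 2.01), CACNA1B (7.48 ± 1.40), CACNA1A (5.10 ± 2.65) and CACNA1C (4.58 ± 1.51) followed, with ranges that overlapped between neighbours. CACNA1D (1.36 ± 0.253) and CACNA1I (1.18 ± 0.492) were lowest, each the higher of the pair in 3 of 6 libraries.

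The order was the same at GD60 except that CACNA1I (2.49 ± 1.25 FPKM) and CACNA1D (2.19 ± 0.419 FPKM) changed places, with CACNA1I above in 4 of 6 libraries. At GD90 CACNA1G led at 27.6 ± 4.56 FPKM and stood above CACNA1H (19.5 ± 3.81) in 6 of 6 libraries. CACNA1B (18.4 ± 4.98), CACNA1E (18.3 ± 6.39) and CACNA1A (17.7 ± 7.40) lay close to CACNA1H with overlapping ranges. CACNA1I reached 10.5 ± 4.14 FPKM, above CACNA1C (7.04 ± 2.23) and CACNA1D (3.04 ± 0.792) in 6 of 6 libraries each.

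**Figure D1:**
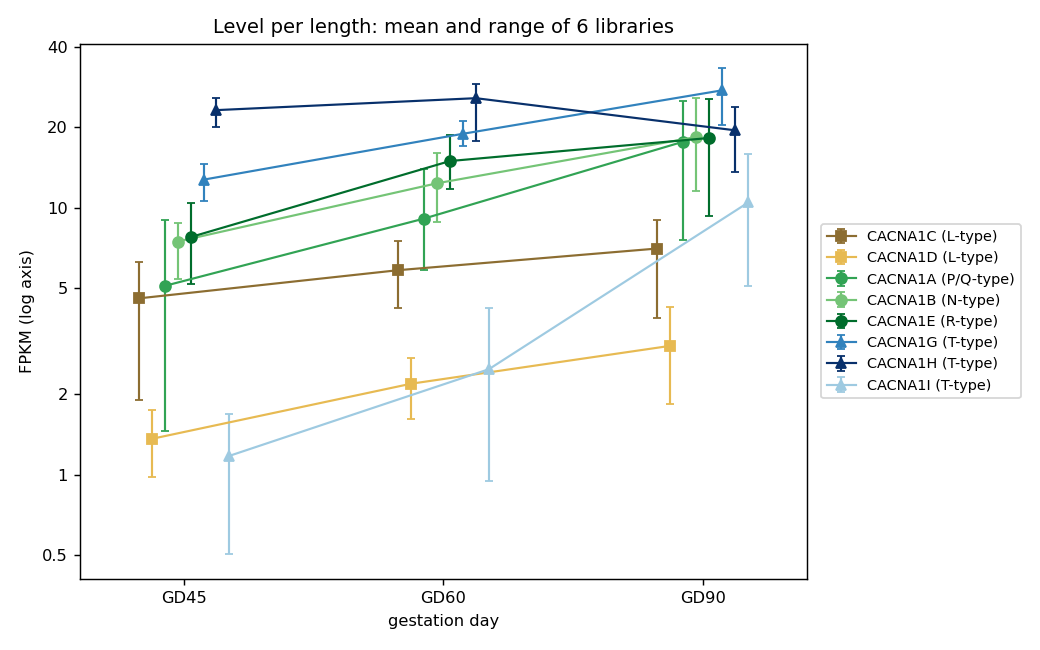
Level per length of the 8 alpha1 genes (FPKM, log axis) by gestation day. Symbols are means and bars the range of 6 libraries, squares L-type, circles P/Q-, N- and R-type and triangles T-type. CACNA1G passes CACNA1H at GD90, CACNA1I leaves the lowest level between GD60 and GD90, and the P/Q-, N- and R-type genes end near 18 FPKM.

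By class, T-type genes made up 59.2% ± 6.07 of the summed FPKM of the 8 genes at GD45, 51.9% ± 3.65 at GD60 and 48.0% ± 3.65 at GD90 (SD, n = 6). P/Q-, N- and R-type genes went from 31.5% ± 4.60 to 39.4% ± 3.42 and 43.8% ± 3.49. L-type genes stayed the smallest class, at 9.25% ± 1.89, 8.75% ± 0.238 and 8.24% ± 0.407. The sum of the 8 genes was 63.4 ± 9.94 FPKM at GD45, 91.7 ± 17.1 at GD60 and 122 ± 33.5 at GD90. These shares are descriptions with no test, and they depend on the 2 partial models.

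Most alpha1 genes rose between the days. From GD45 to GD60, 4 of the 8 (CACNA1B, CACNA1D, CACNA1E and CACNA1G) rose and none fell, where 9.35% of all genes tested rose and 7.37% fell. From GD60 to GD90, 5 rose (CACNA1A, CACNA1B, CACNA1D, CACNA1G and CACNA1I) and 1 fell (CACNA1H), against 21.4% and 20.9% of all genes. Over the whole span, 7 rose and CACNA1H did not pass the test, where 28.3% of all genes rose and 29.3% fell. The median log2 fold change of the 8 genes was 0.70, 0.50 and 1.16 in these 3 comparisons, and that of all genes lay between -0.03 and -0.01. The comparisons share libraries and are not independent of each other. With the top-exon share as a covariate, 6, 3 and 6 of the 8 rose and 0, 1 and 1 fell, where 22.9%, 47.7% and 54.7% of all genes were called in either direction. The 4 of 8 called from GD60 to GD90 were thus near the share of all genes.

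**Figure D2:**
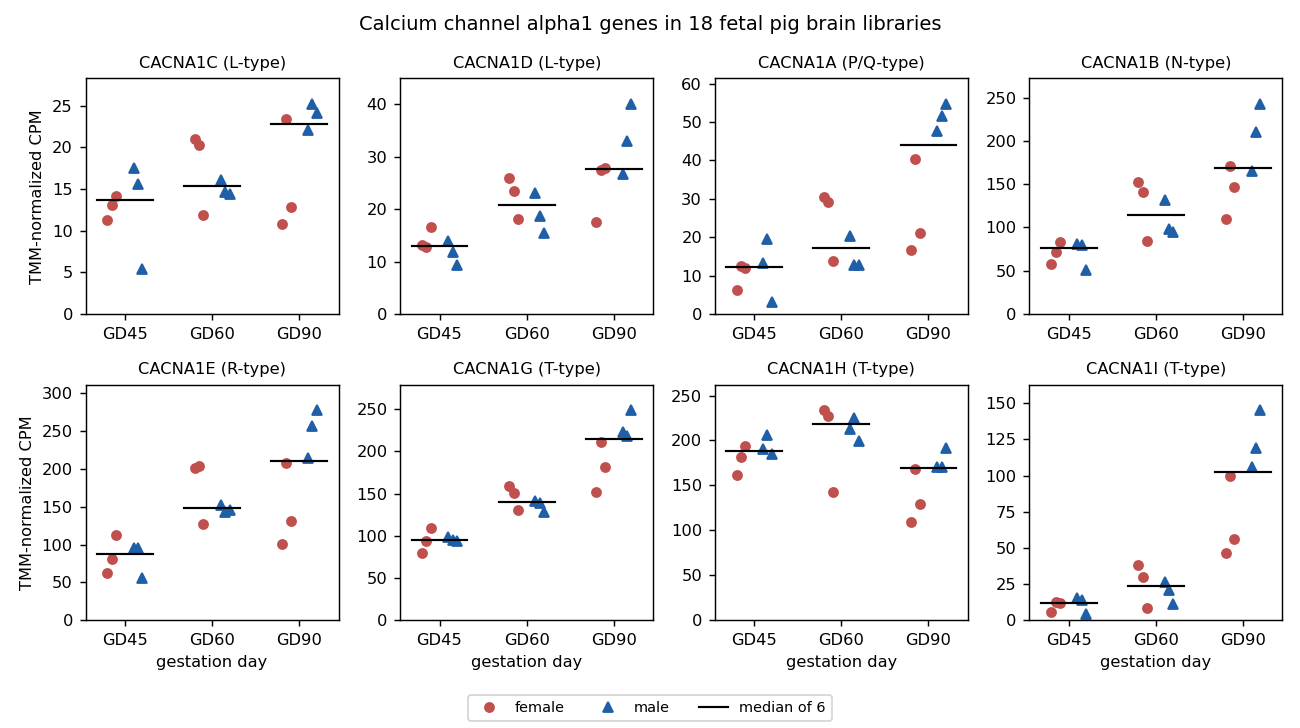
TMM-normalized CPM of each alpha1 gene in every library, by gestation day. Circles are female and triangles male fetuses, and the bar is the median of the 6. CACNA1I at GD90 lies above every earlier library, CACNA1H is lower at GD90, and at GD90 the 2 lowest libraries of 7 genes are female.

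The L-type genes differed in which comparisons passed the test, and the difference between the genes was not tested. CACNA1D, which opens at less depolarized potentials than CACNA1C and paces firing, had a lowest, median and highest level of 9.25, 13.0 and 16.5 CPM at GD45, 15.4, 20.8 and 25.9 CPM at GD60 and 17.5, 27.7 and 40.1 CPM at GD90. At GD60 5 of 6 libraries lay above every GD45 library, and at GD90 all 6 did. Its log2 fold change was 0.69 ± 0.16 (SE) from GD45 to GD60 (adjusted p = 0.00645) and 0.46 ± 0.16 from GD60 to GD90 (adjusted p = 0.0258). The later rise fell to 0.30 with the covariate (adjusted p = 0.0683), and its call was also lost without female GD60 fetus 3, male GD60 fetus 2 or 3, female GD90 fetus 2 or 3, or male GD90 fetus 3, one at a time (0.38 to 0.45), with littermates summed (0.46, adjusted p = 0.0533) and without TMM factors (0.42, adjusted p = 0.0782).

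CACNA1C, the main L-type channel of brain and heart, had a lowest, median and highest level of 5.36, 13.6 and 17.6 CPM at GD45, 11.9, 15.4 and 21.01 CPM at GD60 and 10.8, 22.8 and 25.3 CPM at GD90. The 3 days overlapped, and the lowest libraries at each day were male GD45 fetus 3, female GD60 fetus 3 and female GD90 fetus 1, all of high top-exon share. Its log2 fold change was 0.34 ± 0.24 from GD45 to GD60 and 0.24 ± 0.24 from GD60 to GD90 (95% interval -0.28 to 0.76), neither of which passed the test. From GD45 to GD90 it was 0.58 ± 0.24 (adjusted p = 0.0471). That call was lost in 18 of 28 alternative fits, among them the fit without male GD45 fetus 3 (0.39, adjusted p = 0.0732) and the fit with the covariate (0.0038, adjusted p = 0.983).

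A second, unnamed gene (ENSSSCG00000027725) holds 3758 coding bases of RefSeq CACNA1C that the matched model lacks. Its lowest, median and highest level was 1.09, 3.57 and 7.46 CPM at GD45, 2.30, 5.82 and 17.4 CPM at GD60 and 3.72, 13.3 and 17.1 CPM at GD90. It rose by 1.49 ± 0.46 on the log2 scale from GD45 to GD90 (adjusted p = 0.0102). The difference between the fold changes of the 2 pieces was not tested.

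Among the presynaptic genes, CACNA1B rose in both periods. CACNA1B, the N-type channel, had a lowest, median and highest level of 51.0, 75.8 and 82.7 CPM at GD45, 84.1, 115 and 152 CPM at GD60 and 109, 168 and 243 CPM at GD90. No GD60 or GD90 library overlapped the GD45 range, while 4 of 6 GD90 libraries lay above the GD60 range. Its log2 fold change was 0.72 ± 0.17 (adjusted p = 0.00801) and then 0.56 ± 0.17 (adjusted p = 0.0150), and with the covariate 0.56 and 0.34 (adjusted p = 0.000549 and 0.0130). Without TMM factors the later rise was 0.51 and narrowly missed the threshold (adjusted p = 0.0501).

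CACNA1E, the R-type channel, rose from GD45 to GD60 and did not pass the test from GD60 to GD90 over both sexes. Its lowest, median and highest level was 56.1, 88.2 and 113 CPM at GD45, 127, 149 and 203 CPM at GD60 and 101, 210 and 277 CPM at GD90. GD60 lay wholly above GD45, whereas at GD90 4 libraries were above and 1 (female GD90 fetus 1) was below the GD60 range. The log2 fold change was 0.94 ± 0.19 from GD45 to GD60 (adjusted p = 0.00264) and 0.24 ± 0.19 from GD60 to GD90 (adjusted p = 0.324, 95% interval -0.17 to 0.66), and the latter was -0.04 with the covariate.

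CACNA1A, the P/Q-type channel that drives release at most mature central synapses, varied widely among the libraries of a day (coefficient of variation 41.2% to 51.9%). Its lowest, median and highest level was 3.19, 12.2 and 19.6 CPM at GD45, 12.7, 17.1 and 30.6 CPM at GD60 and 16.5, 44.0 and 54.8 CPM at GD90. Each day overlapped the next, and 5 of 6 GD90 libraries lay above the GD45 range. The log2 fold change was 0.80 ± 0.34 from GD45 to GD60 (adjusted p = 0.117), 0.92 ± 0.33 from GD60 to GD90 (adjusted p = 0.0339) and 1.71 ± 0.34 over the span (adjusted p = 0.000390). With the covariate these were 0.57 (adjusted p = 0.0152), 0.39 (adjusted p = 0.0705) and 0.96 (adjusted p = 0.000273). The later call was also lost without female GD60 fetus 3, male GD60 fetus 2 or 3, female GD90 fetus 2, or male GD90 fetus 2 or 3, one at a time (0.68 to 0.90), and without TMM factors (0.87, adjusted p = 0.0624). A second, unnamed gene (ENSSSCG00000047920) holds 761 coding bases of CACNA1A, shares 180 exonic bases with the matched model and rose by 1.93 ± 0.53 over the span (adjusted p = 0.00512).

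The T-type genes went in different directions. CACNA1I, a slowly closing T-type channel known mainly from neurons, had a lowest, median and highest level of 4.59, 12.3 and 15.3 CPM at GD45, 8.67, 23.8 and 38.3 CPM at GD60 and 46.6, 103 and 145 CPM at GD90. Every GD90 library lay above every earlier one, while GD45 and GD60 overlapped. It showed the largest change of the 8 genes, a log2 fold change of 2.02 ± 0.35 from GD60 to GD90 (adjusted p = 0.000210) after 1.06 ± 0.35 from GD45 to GD60 (adjusted p = 0.0502). With the covariate these were 1.54 (adjusted p = 4.94e-07) and 0.71 (adjusted p = 0.00477).

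CACNA1G, the T-type channel of thalamic relay neurons, rose from GD45 to GD60 and again from GD60 to GD90. Its lowest, median and highest level was 79.5, 94.8 and 110 CPM at GD45, 128, 140 and 159 CPM at GD60 and 152, 215 and 249 CPM at GD90. GD60 lay wholly above GD45, and 5 of 6 GD90 libraries lay above the GD60 range. The log2 fold change was 0.57 ± 0.09 (adjusted p = 0.000525) and then 0.53 ± 0.09 (adjusted p = 0.000254), the smallest errors of the 8 genes, and the call held in each of the 28 alternative fits of each period. Its libraries spread by 8.35% to 16.6% (coefficient of variation) within a day, compared with 39.6% to 50.1% for CACNA1I.

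CACNA1H, a T-type channel of neurons, muscle and endocrine cells, was the only one of the 8 that fell. Its lowest, median and highest level was 162, 188 and 207 CPM at GD45, 143, 219 and 234 CPM at GD60 and 110, 169 and 191 CPM at GD90. No GD90 library lay above the GD60 range and 2 lay below it, both female. The log2 fold change was 0.15 ± 0.12 from GD45 to GD60 (adjusted p = 0.442) and fell by 0.41 ± 0.12 from GD60 to GD90 (adjusted p = 0.0113). Over the span it was -0.26 ± 0.12 (adjusted p = 0.0727), and -0.49 with the covariate (adjusted p = 0.000634).

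The mix of T-type transcripts, taken within each library so that depth cancels out, therefore differed between days. Coverage along genes need not cancel out. The most counted exon held 11.0% to 42.7% of the exon counts of CACNA1G and 29.8% to 68.9% of those of CACNA1H. CACNA1H held 60.3% to 64.3% of the summed T-type FPKM at GD45, 49.1% to 57.5% at GD60 and 32.6% to 34.9% at GD90, with no overlap between days. CACNA1I went from 1.39% to 4.36% through 2.62% to 7.71% to 13.1% to 21.8%. The ratio of CACNA1G to CACNA1H was 0.495 to 0.606 at GD45, 0.665 to 0.982 at GD60 and 1.34 to 1.51 at GD90. These ratios were looked at after the levels were known and carry no test.

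**Figure D3:**
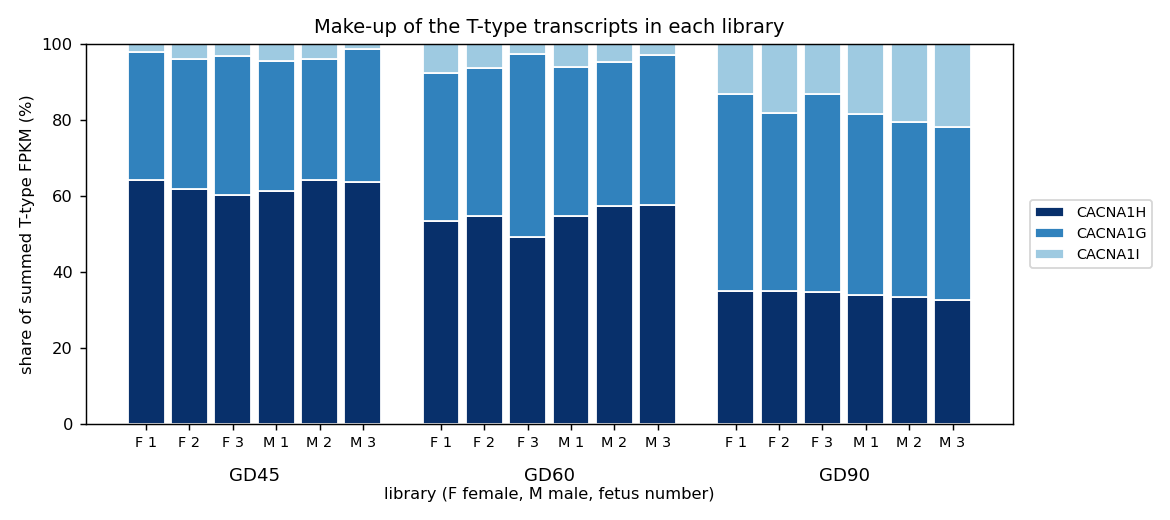
Make-up of the T-type transcripts: each bar is a library, and its colours are the shares (%) of CACNA1H, CACNA1G and CACNA1I in their summed FPKM. CACNA1H shrinks from over 60% in each GD45 library to under 35% in each GD90 library, and the CACNA1I share is over 13% only at GD90.

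The other subunits of these channels were taken as a list of 19 genes, of which 17 were tested, CACNA2D4 and CACNG1 being too low. From GD45 to GD60, 5 of the 17 rose and none fell, against 9.35% and 7.37% of all genes. From GD60 to GD90, 9 rose and 3 fell, against 21.4% and 20.9%, and over the span 11 rose and 3 fell, against 28.3% and 29.3%. Their median log2 fold change was 0.22, 0.56 and 0.81.

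Of the beta subunits, which carry alpha1 to the membrane and set its gating, CACNB4 rose most. Its lowest, median and highest level was 3.96, 7.16 and 11.0 CPM at GD45, 7.11, 12.02 and 20.4 CPM at GD60 and 14.8, 35.0 and 51.8 CPM at GD90, a log2 fold change of 0.81 ± 0.26 (adjusted p = 0.0407) and then 1.31 ± 0.25 (adjusted p = 0.000519). CACNB2 rose by 0.82 ± 0.22 from GD60 to GD90 (adjusted p = 0.00560), and CACNB1 rose by 0.36 ± 0.07 over the span (adjusted p = 0.000491). CACNB3, the most counted beta gene, fell by 0.33 ± 0.11 from GD60 to GD90 (adjusted p = 0.0270), from a median of 216 to 184 CPM. With the top-exon share as a covariate this value was -0.22 and lost its call (adjusted p = 0.0578), and the CACNB2 rise was 0.53 (adjusted p = 0.00238).

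The alpha2delta subunits, extracellular partners that raise the number of channels at the surface, also differed. CACNA2D1, the target of gabapentin, rose by 0.81 ± 0.11 (adjusted p = 8.93e-05) and then by 0.56 ± 0.11 (adjusted p = 0.000623). CACNA2D3 rose by 0.92 ± 0.13 in the later period (adjusted p = 3.61e-05). CACHD1, a relative that acts on T-type channels, fell by 0.34 ± 0.11 in that period (adjusted p = 0.0177), and CACNA2D2 passed the test in neither.

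The gamma family includes the AMPA receptor partners CACNG2, CACNG3, CACNG4 and CACNG8. CACNG3 rose by 0.80 ± 0.11 (adjusted p = 9.47e-05) and by 1.39 ± 0.11 (adjusted p = 4.65e-08), from a median of 16.1 through 29.0 to 71.8 CPM. CACNG8 rose by 1.17 ± 0.15 in the later period (adjusted p = 7.92e-06), as did CACNG6 by 0.73 ± 0.15 (adjusted p = 0.000745). CACNG5 rose by 0.83 ± 0.19 and 0.91 ± 0.18 (adjusted p = 0.00557 and 0.000722). CACNG4 rose by 0.54 ± 0.18 (adjusted p = 0.0473) and then fell by 0.46 ± 0.18 (adjusted p = 0.0465), CACNG2 rose by 0.45 ± 0.15 over the span only (adjusted p = 0.0141), and CACNG7 passed no test. With the covariate the CACNG2 value was 0.20 and lost its call (adjusted p = 0.245), and the CACNG4 fall was -0.72 (adjusted p = 0.000105).

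The 2 remaining alpha1 genes were low. CACNA1S, the skeletal muscle L-type channel, went from a median of 0.299 and 0.418 CPM to 2.44 CPM (2.11 to 3.18), a log2 fold change of 2.53 ± 0.31 from GD60 to GD90 (adjusted p = 7.70e-06). The summed median of 5 skeletal muscle markers went from 5.73 through 10.5 to 19.3 CPM, and the median of ACTA1 alone from 1.89 through 6.08 to 15.3 CPM. Of 3 tested, ACTA1 and CKM were higher at GD90 than at GD45 and MYH3 was not (log2 difference -0.11, adjusted p = 0.816). MYLPF and TNNT3 were too low to test, and no marker was at 0 in all libraries. CACNA1F, the retinal L-type channel, was lower at GD90 than at GD45 by a log2 difference of -0.70 ± 0.25 (adjusted p = 0.0242) at medians of 3.21 and 2.10 CPM. What skeletal muscle tissue contributes to CACNA1S was not tested.

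**Figure D4:**
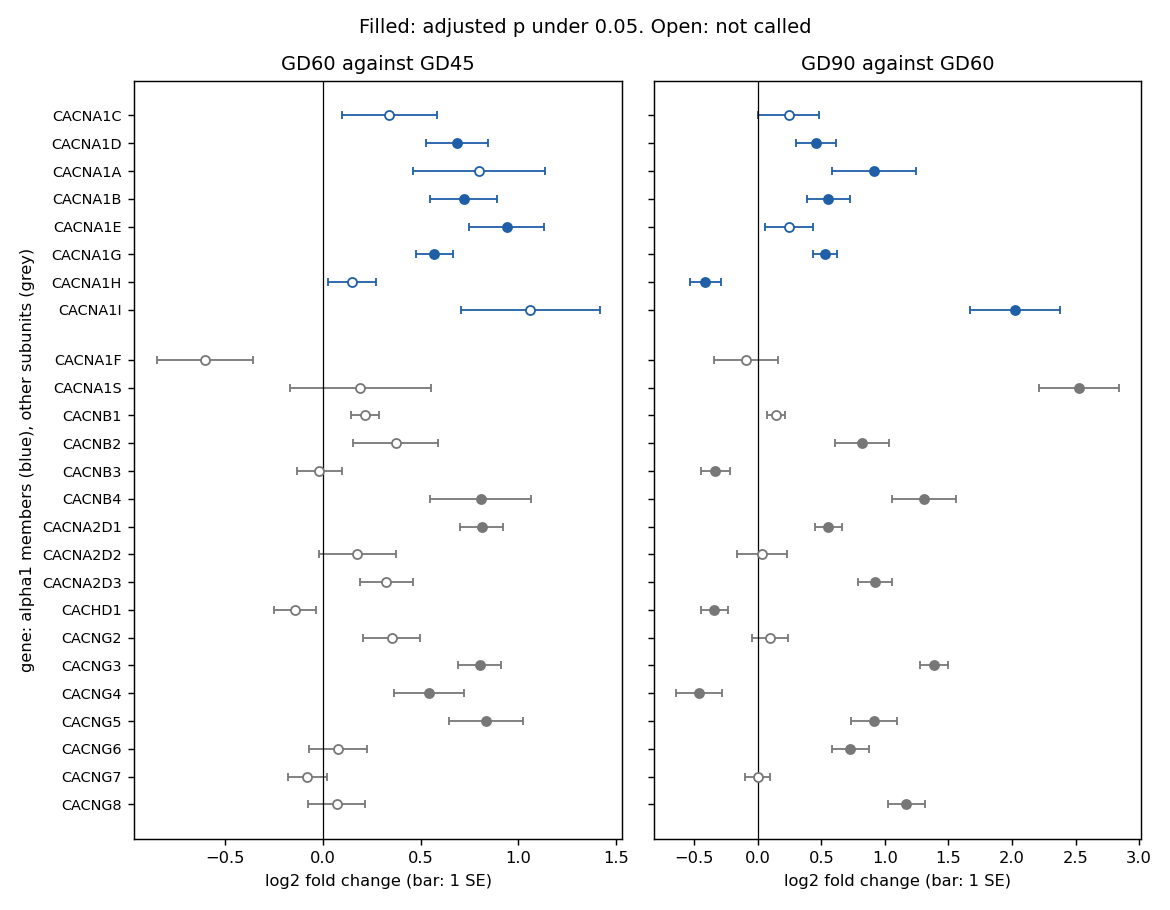
Log2 fold changes of the 8 alpha1 genes (blue) and 17 other channel subunit genes (grey) for GD60 against GD45 and GD90 against GD60, with bars of 1 SE. Filled symbols have an adjusted p under 0.05. CACNA1I and CACNA1S lie furthest right for GD90 against GD60, and the filled symbols of CACNA1H, CACNB3, CACHD1 and CACNG4 lie to the left of 0.

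The study also asked whether the brain differs by fetal sex. No alpha1 gene differed between males and females at GD45, GD60 or GD90, days at which 0.0919%, 0.098% and 0.098% of all genes did by edgeR's quasi-likelihood test. The likelihood ratio test and DESeq2 also called none. At GD90 all 8 genes were higher in males, by a log2 difference of 0.34 to 0.98, where 51.2% of all genes were higher in males. Of the 8, 5 had an unadjusted p under 0.05, as had 2213 of the 16325 genes tested. The lowest adjusted p of the 8 was 0.350. It was 0.0531 with only the 6 libraries compared, 0.0777 without the GD45 litter of 8 and 0.335 with litter as a block. In the fit to all 18 libraries CACNA1E had the lowest unadjusted p at GD90. Its females had 101, 131 and 207 CPM and its males 213, 256 and 277 CPM. The top-exon share also differed between those groups, at 26.0% to 30.3% in females and 23.7% to 24.5% in males. With that share as a covariate, 5 of the 8 were higher and 3 lower in males, and the 8 log2 differences ranged from -0.28 (CACNA1I) to 0.23 (CACNA1E).

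The day comparisons were also made within each sex. In females 3 of the 8 rose from GD45 to GD60 (CACNA1B, CACNA1E and CACNA1G), where 7.22% of all genes were called, and 2 changed from GD60 to GD90 (CACNA1I higher and CACNA1H lower, 27.1%). In males 1 rose in the first period (CACNA1G, 5.61%) and 6 rose in the second (CACNA1A, CACNA1B, CACNA1D, CACNA1E, CACNA1G and CACNA1I, 34.5%). With the top-exon share as a covariate, the same members were called from GD60 to GD90 in each sex. CACNA1G and CACNA1I rose and CACNA1H fell, where 37.9% of all genes were called in females and 26.7% in males. The difference between the female and male changes was tested itself, without the covariate. It was called for none of the 8 in either period, nor for any gene (0% and 0%). At an unadjusted p under 0.05, 0 and 5 of the 8 differed, beside 333 and 3232 of all genes.

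CACNA1E and CACNA1A had the lowest p-values for this difference in the later period. The CACNA1A log2 fold change from GD60 to GD90 was 0.08 ± 0.46 in females and 1.75 ± 0.48 in males, a difference of 1.66 ± 0.66 (adjusted p = 0.218). The females had 30.6, 29.1 and 13.9 CPM at GD60 and 16.5, 40.3 and 21.1 CPM at GD90, and the males had 20.3, 12.9 and 12.7 CPM and then 47.7, 51.5 and 54.8 CPM. The difference was 1.64 (adjusted p = 0.0379) without the GD45 litter of 8, 1.66 (adjusted p = 0.0352) without male GD45 fetus 3, which belongs to it, and 0.36 (adjusted p = 0.867) with the top-exon share as a covariate. CACNA1E gave in the same order 1.04 ± 0.38 (adjusted p = 0.206), 1.02 (adjusted p = 0.0407), 1.03 (adjusted p = 0.0521) and 0.37 (adjusted p = 0.763). Both brains of the GD45 litter of 8 had lower labelled weights than every other GD45 brain.

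The exon counts come from the same libraries as the gene counts and are not independent of the gene-level changes. Of 184 exons tested in the 8 genes, none changed its usage relative to the other exons of its gene, from GD45 to GD60 or from GD60 to GD90, by edgeR's exon test, and 23 and 10 had an unadjusted p under 0.05, as had 3797 and 3319 of all 76800 exons tested. Of all exons, 0.013% and 0.1% were called, so calls were few in all genes. CPM of an exon is scaled by the exon total of the library, without TMM factors. In their own mean CPM, all 29 CACNA1I exons were higher at GD90 than at GD60, by a log2 ratio of 0.94 to 3.68, and 29 of 34 CACNA1H exons were lower. All 34 CACNA1G exons were higher in both periods. The share of all exons that were higher or lower was not computed.

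The most counted exon of each gene is set beside the others here as a description, since no exon was called for changed usage. Shares here are of the counts on the tested exons of a gene, while those of CACNA1G and CACNA1H given earlier were of all its exon counts. The most counted exon held 66.6% for CACNA1B, 78.8% for CACNA1D, 75.5% for CACNA1E and 49.8% for CACNA1I. It held 46.8% for CACNA1H and 46.3% for CACNA1C, but 22.1% for CACNA1A and 19.3% for CACNA1G. From GD45 to GD60 its log2 ratio was below the median of the other exons in 8 of 8 genes, and from GD60 to GD90 in 7 of 8, CACNA1A being the exception. How many of all genes did the same was not counted. The top-exon share over 2433 genes had a median of 28.5% at GD45, 28.5% at GD60 and 25.2% at GD90. For CACNA1E the ratio of the most counted exon was 0.79 beside 1.48 in the earlier period, and -0.07 beside 0.62 in the later one. For CACNA1I it was 1.80 beside 2.05 from GD60 to GD90, and for CACNA1H it was -0.57 beside -0.38. From GD45 to GD60 the CACNA1H exons differed in sign, at -0.20 for the most counted exon beside 0.55 for the others, with 27 of 34 exons higher.

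Over the 18 libraries, log2 CPM of the alpha1 genes other than CACNA1H moved together, with Pearson's r between pairs of 0.663 to 0.969 (CACNA1B and CACNA1D), as a description over libraries that share day, depth and coverage. CACNA1H stood apart, with r from -0.138 (CACNA1I) to 0.306 (CACNA1C). The 2 genes most like each member among all genes with a symbol were TMEM132B (0.994) and PSD3 (0.991) for CACNA1A, and PITPNM3 (0.980) and the NMDA receptor subunit GRIN2A (0.979) for CACNA1B. For CACNA1E they were PDE4DIP (0.978) and the presynaptic scaffold gene BSN (0.977), for CACNA1C SOCS7 (0.971) and HIP1 (0.970), and for CACNA1D FAM184A (0.966) and the neurotrophin receptor NTRK3 (0.960). Among the T-type genes they were SPTBN4 (0.982) and the calcium release channel RYR2 (0.976) for CACNA1G, VAT1L (0.979) and the potassium channel KCNMA1 (0.979) for CACNA1I, and PHLDB1 (0.975) and BAHCC1 (0.945) for CACNA1H.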

How the data were processed

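Whole-brain RNA of 18 pig fetuses was sequenced as paired-end reads after poly(A) enrichment. The authors deposited raw counts per gene, per exon and per transcript on Sscrofa11.1, and the submitters' processing notes name FastQC, Trimmomatic, HISAT2 and featureCounts. The strand, multi-mapping and overlap options are not given in the sources used here. The transcript counts were not used here. No column of comparisons by the authors was used. Gene model lengths were taken as deposited.

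Columns were matched to samples by the sample descriptions. The 4 libraries with 2 columns were repeat runs of 1 library (chi-square per degree of freedom 1.608 to 1.686, against at least 7.094 between replicates) and were summed. Gene totals were 15118843 to 19729783 and exon totals 6988796 to 9214794 counts. Intervals cover the spread between fetuses, and littermates share a dam.

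The edgeR (4.0.16, R 4.3.3) quasi-likelihood test was fitted to all 18 libraries in 6 groups of sex and day with TMM factors, after its filter on low counts (16325 of 31908 genes, 99.93% of counts). P-values were adjusted over all genes tested by the Benjamini-Hochberg method, with a threshold of 0.05, and 95% intervals used 12 degrees of freedom. CPM of genes is TMM-normalized, CPM of exons is scaled by exon totals only, and FPKM is gene CPM per kilobase of model. Exon usage was tested with edgeR in 76800 of 319124 exons. DESeq2 (1.42.0), limma (3.58.1), Python 3.11.15, pandas 2.3.3, pysam 0.24.0 and Biopython 1.88 served the alternatives, tables and sequences. Scripts were tested on simulated data.

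Alternatives were another test, scaling, filter, a length trend removed, litters as a block or summed, subsets of libraries and each library left out. The top-exon share as a covariate was added after seeing the data. The named genes were all 8 members, the listed channel subunits called in a day comparison (CACNA2D2, CACNA2D4, CACNG1 and CACNG7 are named although not called), the 2 genes most like each member, and called exons. The skeletal muscle markers are also named. The marker lists covered neurons, radial glia and progenitors, astrocytes, the oligodendrocyte lineage, microglia, endothelium, mural cells, meninges, erythroid cells, skeletal muscle, pituitary, retina, Purkinje cells and thalamus. The members and lists were chosen with earlier results of these data known.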

Additional observations from a re-analysis of the deposited data

How the results depend on the processing

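Each of the 24 fold changes of the 8 genes between days was recomputed in 28 alternative fits. Of the 672 values, which share fits and libraries and are not independent, 618 kept the direction and the side of the threshold. A call was lost in 36 and gained in 16. The 2 reversals came with the top-exon share as a covariate, added after seeing the data, and neither value was called: CACNA1C at -0.14 and CACNA1E at -0.036 from GD60 to GD90. Without TMM factors the number of members called was 3 from GD60 to GD90, 1 and 0 for females and males from GD45 to GD60, and 1 for females from GD60 to GD90. For females from GD45 to GD60 it was 5 without the GD45 litter of 8 and 5 with the covariate. For males from GD45 to GD60 it was 2 by the likelihood ratio test, 3 by DESeq2, 0 with no filter, 3 with the length trend removed, 4 with the covariate and 0 with only the 6 libraries compared. For females from GD60 to GD90 it was 0 with only those 6 libraries and 3 with the covariate. For males it was 3 with the covariate, and in both sexes CACNA1H was the one that fell. The difference between sexes from GD60 to GD90 gave 2 calls without the GD45 litter of 8, and the other subunits gave 8 calls from GD45 to GD60 with the covariate. The cause of these changes was not tested. Leaving out single libraries gave 0 to 5 members called for females and 0 to 1 for males from GD45 to GD60, 0 to 2 for females from GD60 to GD90, 0 to 1 for the difference between sexes from GD60 to GD90, 3 to 6 other subunits from GD45 to GD60, and 0 to 1 exons with changed usage from GD45 to GD60, the latter without male GD45 fetus 2. With litter as a replicate block (correlation within litters 0.104), the CACNA1C rise from GD45 to GD90 was 0.60 and lost its call (adjusted p = 0.0564), and no other member's call between days changed under the block. With littermates summed, the CACNA1D rise from GD60 to GD90 lost its call (0.46, adjusted p = 0.0533). The litter pairing is inferred from equal litter sizes.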
